A study of Mus musculus with 22 samples.

Results

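Lipid nanoparticles that reach the blood take up apolipoproteins from plasma, and hepatocytes then clear them along the routes that serve lipoprotein remnants. The genes described here are 7 members of that route, chosen by name from a list, with earlier results of these data known. They are the ligands Apoe and Apob, the receptor Lrp1 with its chaperone Lrpap1, the sorting receptor Sort1, and the asialoglycoprotein receptor subunits Asgr1 and Asgr2. They are 7 of 16469 genes in the deposited table, all 7 were listed there, and all 7 passed the filters on low values of both tests used. The libraries came from 22 whole livers of C57BL6J mice, perfused with PBS. In 3 livers the mice had received particles at 2 mg/kg, in 4 livers BLT-1 at 1 mg/kg followed 24 h later by particles at 0.2 mg/kg, in 8 livers particles at 0.2 mg/kg alone, and 7 livers were controls. The particles carried a Dicer-substrate RNA, which the column names of the table tie to Hprt, and livers were taken 24 h after the intravenous particle injection. BLT-1 is a small-molecule blocker of lipid transport by the scavenger receptor SR-BI. For the controls the labels give no treatment, no group had BLT-1 alone, and sex and age are not stated. The labels number the animals, but they do not say whether animals were treated or processed on separate days, so p-values measure only the spread between these livers.

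As background, apolipoprotein E on a particle surface is bound by receptors of the LDL receptor family and by heparan sulfate proteoglycans in the space between hepatocytes and sinusoids. The receptor with its cargo enters clathrin-coated pits, the endosome is acidified, and the receptor returns to the surface. Asialoglycoprotein receptors use the same endocytic path for glycoproteins that have lost their terminal sialic acid, and they are the entry point of galactosamine-conjugated RNA drugs. The present libraries measure mRNA only, not receptor protein, plasma apolipoproteins or particle uptake.

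The windows around the annotated starts of 3 genes are shown here because Apoe was the single member with a called change and because Asgr1 and Asgr2 encode the subunits of 1 receptor. In the annotation these subunit genes lie next to each other on the same strand of mouse chromosome 11 with no gene between them. The sequences are from RefSeq on GRCm38.p6, each covers 250 bases before to 50 bases after a start, and each is written 5′ to 3′ on the gene's own strand. Motifs searched on both strands were GAAA and again GAAA with any 2 bases between (an interferon-stimulated response element), TTC and GAA with any 3 bases between (a STAT site), CCAAT and TATAAA, and matches stand in capitals.
Apoe, 1 of 3 listed starts, chr7:19699139-19699438, minus strand: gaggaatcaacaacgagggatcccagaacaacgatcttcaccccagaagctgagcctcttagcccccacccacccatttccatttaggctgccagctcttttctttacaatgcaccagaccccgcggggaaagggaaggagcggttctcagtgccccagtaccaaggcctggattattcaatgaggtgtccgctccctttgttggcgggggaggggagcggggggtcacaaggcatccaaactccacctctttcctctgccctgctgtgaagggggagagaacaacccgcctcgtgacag
Asgr1, 1 of 2 listed starts, chr11:70053874-70054173, plus strand: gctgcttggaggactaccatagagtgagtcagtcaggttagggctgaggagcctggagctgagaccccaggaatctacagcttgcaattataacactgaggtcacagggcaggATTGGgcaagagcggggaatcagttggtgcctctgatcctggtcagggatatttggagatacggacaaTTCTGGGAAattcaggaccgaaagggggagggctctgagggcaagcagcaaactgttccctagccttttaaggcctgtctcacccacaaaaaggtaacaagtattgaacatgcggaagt
Asgr2, its only listed start, chr11:70092394-70092693, plus strand: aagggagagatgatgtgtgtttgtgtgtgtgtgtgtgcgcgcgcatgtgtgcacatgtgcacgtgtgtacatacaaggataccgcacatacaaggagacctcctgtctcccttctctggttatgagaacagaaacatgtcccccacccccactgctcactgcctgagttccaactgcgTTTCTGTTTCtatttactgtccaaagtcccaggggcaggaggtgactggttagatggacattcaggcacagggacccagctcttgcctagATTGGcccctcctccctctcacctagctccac
The Apoe window held none of the 4 motifs, and of its other 2 listed starts 1 had a window with 2 overlapping matches to TATAAA and 1 had none. The Asgr1 window held a match to the STAT site and, on the other strand, one to CCAAT, and the window of its other start held another match to the STAT site. The Asgr2 window held a match to the interferon element and one to CCAAT, both read on the other strand. Of 32851 promoter windows of the same length, 3.44% held the interferon element, 8.3% the STAT site, 37.4% held CCAAT and 13.6% held TATAAA. These matches describe letters only, and 6 of the 7 members had a window in the set.

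Libraries held 7152596 to 15101565 reads, and the members other than Apoe and Sort1 had between 33 and 4791 reads each per library. Levels are given as CPM after TMM scaling, from reads that were recovered from the spike-in-scaled deposited values. Reads came from the 3′ ends of transcripts, so levels are compared between livers and not between genes. The tissue label was checked with 10 hepatocyte markers, all present in every group, with a summed level of 24811 to 26290 CPM at 2 mg/kg, 23641 to 25562 CPM in the BLT-1 group, 22014 to 26268 CPM at 0.2 mg/kg and 26065 to 34037 CPM in controls. Hprt, the target, was at 15.5, 17.6 and 12.9 CPM at 2 mg/kg, against 25.0 to 39.04 CPM in controls, which was 50.9% of controls in the edgeR fit (adjusted p = 2.4e-05). Libraries of controls 28 and 29 stood apart, with the acute-phase gene Saa1 at 11997 and 13501 CPM against 424 to 3580 CPM in the other 5 controls. Saa1 was also high in particle-treated livers, at 13264 to 26139 CPM at 2 mg/kg, 8649 to 15577 CPM in the BLT-1 group and 994 to 10123 CPM at 0.2 mg/kg. The sum of 4 neutrophil markers was 39.9 to 113 CPM at 2 mg/kg, 15.8 to 59.3 CPM in the BLT-1 group, 15.98 to 34.6 CPM at 0.2 mg/kg and 7.31 to 60.1 CPM in controls. The part of Saa1 and of these markers in the results below was not tested. The 3 livers at 2 mg/kg carried Xist, the RNA of the inactive X chromosome, at 2.81 to 4.84 CPM, against at most 0.313 CPM in the other 19 livers. Ddx3y, a Y-linked helicase, was at 6.53 to 8.87 CPM in those 3 livers and at 15.7 to 19.1 CPM in the others, so the dose of 2 mg/kg and this pattern cannot be told apart in any comparison below.

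Apoe mRNA was at 90.2% to 92.1% of the control level in the 3 particle groups, and it was the single member that passed a threshold in either main test. On the deposited scale, limma called 0 of the 7 members in all 5 comparisons, with Sort1 at an unadjusted p under 0.05 in the comparisons of 2 mg/kg with controls and with 0.2 mg/kg. That test called 0.206% of 11159 genes at 0.2 mg/kg, 0.457% at 2 mg/kg and 0.00896% after BLT-1, each against controls. Between particle groups it called 0.269% for the higher over the lower dose and 0 genes for BLT-1 over particles alone, where 206 genes had an unadjusted p under 0.05 by limma. On recovered reads, edgeR called 1 of the 7 members, Apoe, at 0.2 mg/kg and after BLT-1, each against controls, and 0 members in the other 3 comparisons. Its background was 5.03% of 10766 genes at 0.2 mg/kg, 7.1% at 2 mg/kg and 2.71% after BLT-1 against controls. Between particle groups it was 5.51% for the higher over the lower dose and 0.0929% for BLT-1 over particles alone. Where edgeR called 0 members, its unadjusted p was under 0.05 for Apoe and Sort1 at 2 mg/kg against controls, for Sort1 at 2 mg/kg against 0.2 mg/kg, and for no member with BLT-1 against 0.2 mg/kg. Apart from Sort1, the members' edgeR log2 changes lay between -0.18 and 0.17 over the 5 comparisons, which is 88.5% to 112% of the level in the group compared with.

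**Figure D1:**
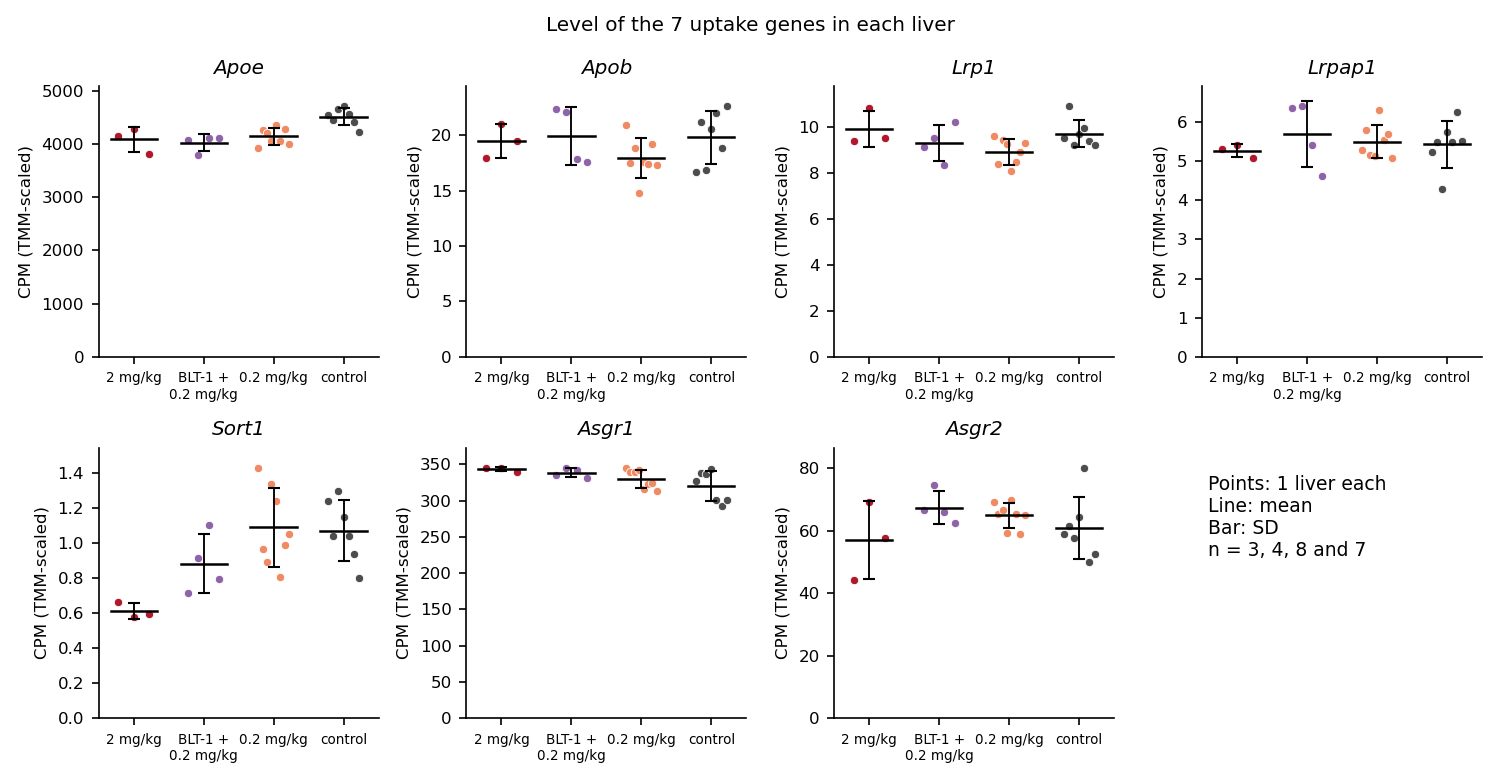
Level of each of the 7 genes (CPM after TMM scaling, linear axes from 0) in every liver at 2 mg/kg, after BLT-1 with 0.2 mg/kg, at 0.2 mg/kg and in controls. Points are livers, lines are means and bars are SD (n = 3, 4, 8 and 7). Apoe sits lower in most particle-treated livers than in controls, and Sort1 is lowest in the 3 livers at 2 mg/kg.

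Apoe (ENSMUSG00000002985.17) encodes the ligand that carries remnants and lipid particles to hepatocytes. It is made by hepatocytes and by macrophages. The livers at 2 mg/kg held 4154, 4277 and 3814 CPM of Apoe. After BLT-1 the 4 livers held 4073, 3781, 4107 and 4117 CPM. The 8 livers at 0.2 mg/kg ranged over 3914, 4125 and 4361 CPM (lowest, median, highest), and the 7 controls over 4231, 4541 and 4709 CPM. Of the 15 particle-treated livers, 11 lay below the lowest control, which was control 29, and 4 lay above it. The share of all genes with such a count over the 15 livers was not tested. The groups after BLT-1 and control did not overlap for Apoe, as was the case with the first group lower for 1.86% of genes in that comparison.

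Apoe averaged 4138 ± 158 CPM at 0.2 mg/kg and 4507 ± 160 CPM in controls (SD, n = 8 and 7), a log2 change of -0.12 ± 0.03 (SE; 95% interval -0.19 to -0.05) with an edgeR adjusted p of 0.0408. It fell to 4019 ± 160 CPM after BLT-1 with 0.2 mg/kg (SD, n = 4), a log2 change of -0.15 ± 0.04 against controls (95% interval -0.24 to -0.06, edgeR adjusted p = 0.0371). At 2 mg/kg the mean was 4081 ± 240 CPM (SD, n = 3) and the log2 change was -0.14 ± 0.05 (95% interval -0.23 to -0.04), which did not pass (edgeR adjusted p = 0.0685). These 3 comparisons share the same controls. Between particle groups, the log2 change of Apoe was -0.01 for 2 mg/kg against 0.2 mg/kg (95% interval -0.10 to 0.09, edgeR adjusted p = 0.908) and -0.03 for BLT-1 against 0.2 mg/kg (95% interval -0.12 to 0.05, edgeR adjusted p = 0.948). These 2 differences were smaller than the spread between livers.

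The call of Apoe depended on single livers and on the scaling. With 1 liver left out in turn, edgeR called Apoe in 10 of 22 fits at 0.2 mg/kg (adjusted p 0.0247 to 0.0844), in 13 of 22 fits after BLT-1 (0.0232 to 0.184) and in 2 of 22 fits at 2 mg/kg (0.0336 to 0.4001), those without liver 16 at 2 mg/kg or control 29. The log2 change over all these fits lay between -0.17 and -0.08. Without controls 28 and 29, edgeR called Apoe in all 3 comparisons with controls (log2 -0.15, -0.17 and -0.18 at 0.2 mg/kg, 2 mg/kg and after BLT-1). With the animal number range as a block, edgeR called Apoe in all 3 as well, including 2 mg/kg (log2 -0.14, adjusted p = 0.0492). DESeq2 also called it in all 3, with adjusted p of 0.00228 at 0.2 mg/kg, 0.0104 at 2 mg/kg and 0.00204 after BLT-1. With spike-in size factors, or with no filter on low counts, edgeR called Apoe in none of the 5 comparisons. On the deposited scale the same livers spread far more, with a coefficient of variation of 29.1% to 36.1% within groups against 3.54% to 5.88% in CPM. There, limma gave log2 changes of -0.13, -0.16 and -0.16 relative to the median of all genes at 0.2 mg/kg, 2 mg/kg and after BLT-1. Its adjusted p, which test the change before that median is subtracted, were 1, 0.920 and 1.

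**Figure D2:**
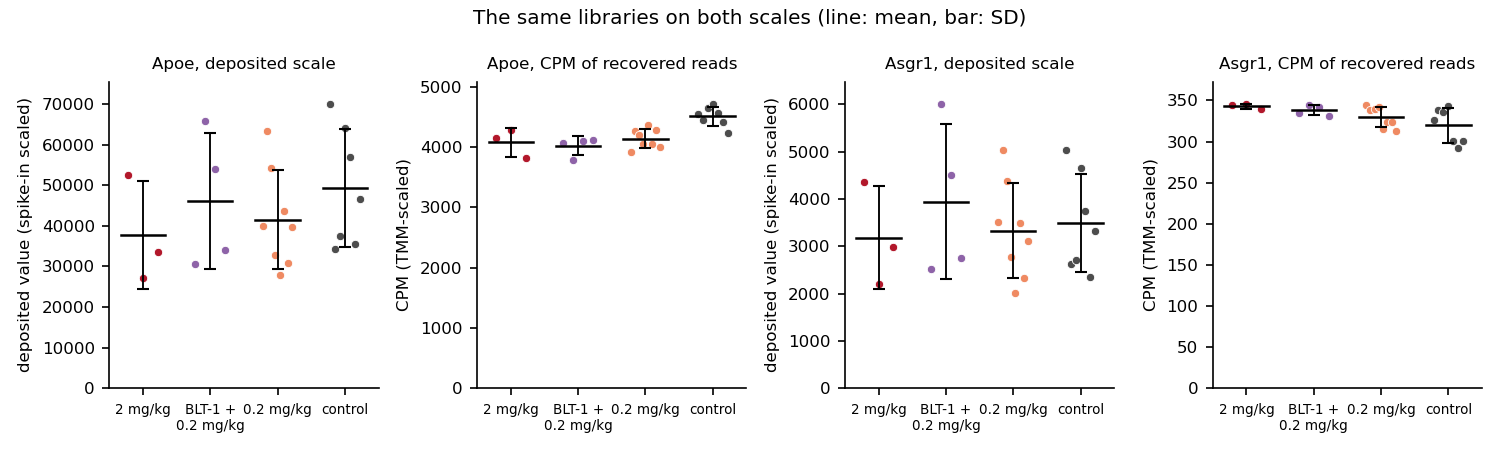
Apoe and Asgr1 in the same livers on the deposited, spike-in-scaled axis and in CPM after TMM scaling (linear axes from 0; points are livers, lines are means, bars are SD). The control mean of Apoe stands above the other groups on both scales, and within-group spread is several times wider on the deposited scale.

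Other transcripts moved in the same livers as Apoe. Alb, the main plasma protein of hepatocytes, was at 84.6% of controls at 0.2 mg/kg (edgeR adjusted p = 0.0311), at 77.8% at 2 mg/kg (adjusted p = 0.0122) and at 82.2% after BLT-1, which did not pass (adjusted p = 0.05001). Alb is 1 of the 10 hepatocyte markers, which did not move as one. By edgeR, 0 rose and 2 fell at 0.2 mg/kg (median log2 -0.24), 1 rose and 2 fell at 2 mg/kg (median -0.09), and 0 passed after BLT-1 (median -0.14). The summed level of 10 Kupffer cell markers, all present, was 56.8 to 75.3 CPM at 2 mg/kg, 66.6 to 95.6 CPM in the BLT-1 group, 62.2 to 92.8 CPM at 0.2 mg/kg and 78.5 to 108 CPM in controls. Of those 10 markers, edgeR called 3, 1 and 2 lower and 0 higher in the same order against controls. The part of these changes in the Apoe result was not tested. In whole liver, fewer cells of a type and less RNA per cell cannot be told apart.

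Apob (ENSMUSG00000020609.15) encodes the structural protein of VLDL and LDL, which is itself a receptor ligand. It was at 17.9, 21.0 and 19.4 CPM at 2 mg/kg and at 22.3, 22.1, 17.8 and 17.6 CPM after BLT-1. The lowest, median and highest livers were at 14.7, 17.5 and 20.9 CPM at 0.2 mg/kg and at 16.7, 20.6 and 22.6 CPM in controls. Groups overlapped, and within the BLT-1 group livers 6 and 7 stood above livers 19 and 20. The mean at 0.2 mg/kg was 90.5% of the control mean, with a log2 change of -0.14 (95% interval -0.32 to 0.04, edgeR adjusted p = 0.448). At 2 mg/kg and after BLT-1 the log2 changes were -0.02 (95% interval -0.25 to 0.21) and 0.02 (95% interval -0.19 to 0.24).

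The number of Apoe reads per Apob read, taken within each library and so free of library scaling, averaged 211 ± 18.7 at 2 mg/kg, 205 ± 32.6 in the BLT-1 group, 233 ± 25.1 at 0.2 mg/kg and 231 ± 33.2 in controls (SD, n = 3, 4, 8 and 7). It is a ratio of 3′-end reads and not of molecules. The ranges of the 4 groups overlapped.

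**Figure D3:**
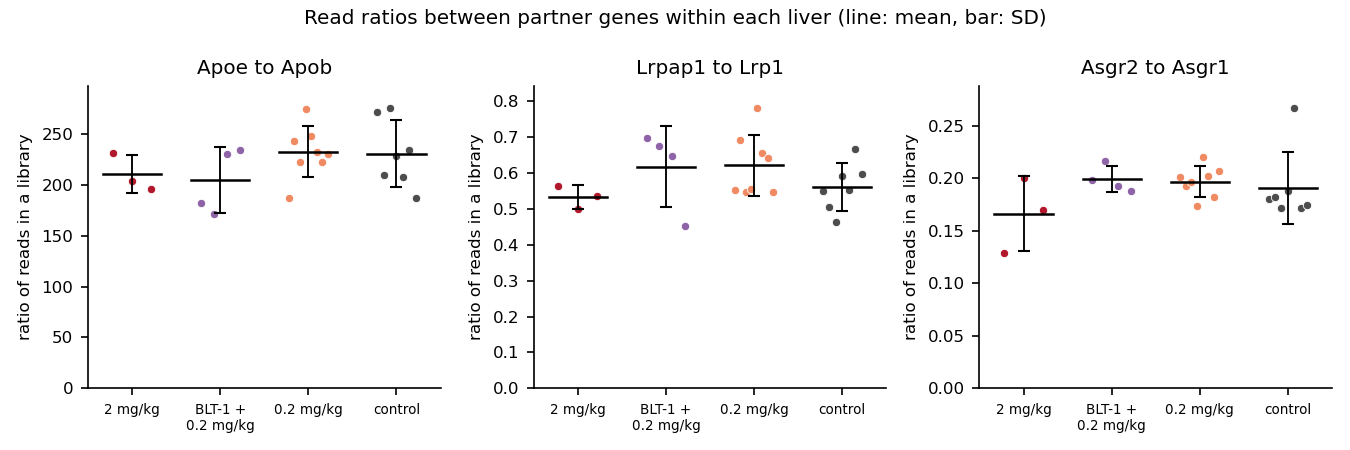
Read ratios between partner genes within each liver, on linear axes from 0 (points are livers, lines are means, bars are SD; n = 3, 4, 8 and 7). The ranges of the 4 groups overlap in all 3 ratios, and control 27 lies alone above its group for Asgr2 to Asgr1.

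Lrp1 (ENSMUSG00000040249.16) encodes the large endocytic receptor of hepatocytes that takes up apolipoprotein E-rich remnants. Its level was 9.41, 10.8 and 9.51 CPM at 2 mg/kg and 9.11, 9.50, 8.36 and 10.2 CPM after BLT-1. At 0.2 mg/kg the lowest, median and highest livers were at 8.07, 9.08 and 9.59 CPM, and in controls at 9.21, 9.51 and 10.9 CPM. The mean at 0.2 mg/kg was 92.0% of the control mean, and the ranges of the groups overlapped. The edgeR log2 change was -0.12 (95% interval -0.27 to 0.04, adjusted p = 0.491), so this difference was not larger than the spread. At 2 mg/kg the change was 0.04 against controls (95% interval -0.12 to 0.20) and 0.16 against 0.2 mg/kg (95% interval -0.01 to 0.33, edgeR adjusted p = 0.370). After BLT-1 it was -0.04 against controls (95% interval -0.25 to 0.16) and 0.07 against 0.2 mg/kg (95% interval -0.10 to 0.24). An annotated antisense transcript overlaps Lrp1, and whether reads were counted by strand is not given in the sources used here.

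Lrpap1 (ENSMUSG00000029103.17) encodes the receptor-associated protein, a chaperone that keeps LRP1 and its relatives from binding ligands in the endoplasmic reticulum. Its livers were at 5.31, 5.41 and 5.09 CPM at 2 mg/kg, and at 6.35, 6.41, 5.42 and 4.63 CPM after BLT-1. The 0.2 mg/kg group spanned 5.09, 5.41 and 6.30 CPM (lowest, median, highest) and the controls 4.28, 5.50 and 6.27 CPM. All groups overlapped with the controls. The edgeR log2 changes against controls were 0.02 at 0.2 mg/kg (95% interval -0.25 to 0.29), -0.04 at 2 mg/kg (95% interval -0.28 to 0.20) and 0.08 after BLT-1 (95% interval -0.38 to 0.54). Lrpap1 had 33 to 75 reads per library. These intervals, like those of Lrp1, were back-calculated from the edgeR p-values, so their widths do not follow read depth alone. They can be narrower than counting noise alone would give. The Lrpap1 to Lrp1 read ratio averaged 0.534 ± 0.0324 at 2 mg/kg, 0.618 ± 0.112 in the BLT-1 group, 0.621 ± 0.0863 at 0.2 mg/kg and 0.561 ± 0.0659 in controls (SD, n = 3, 4, 8 and 7).

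Sort1 (ENSMUSG00000068747.15) encodes sortilin, a Golgi sorting receptor that binds apolipoprotein B and directs it towards secretion or degradation. It had the lowest counts of the members, 6 to 14 reads per library. The livers at 2 mg/kg held 0.664, 0.577 and 0.594 CPM, and those after BLT-1 held 0.717, 0.916, 1.10 and 0.798 CPM. At 0.2 mg/kg the lowest, median and highest were 0.805, 1.02 and 1.43 CPM, and in controls 0.801, 1.04 and 1.298 CPM. All 3 livers at 2 mg/kg lay below the other 19, the lowest of which was at 0.717 CPM. Such a separation with the first group lower was seen in 3.63% of genes for 2 mg/kg against controls and in 3.94% for 2 mg/kg against 0.2 mg/kg. The mean at 2 mg/kg was 57.0% of controls and 56.1% of 0.2 mg/kg.

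The Sort1 difference did not pass either main test. The edgeR log2 change was -0.79 ± 0.32 against controls (SE; 95% interval -1.45 to -0.12, adjusted p = 0.166) and -0.81 ± 0.30 against 0.2 mg/kg (95% interval -1.43 to -0.20, adjusted p = 0.127). The DESeq2 intervals were wider, -1.60 to -0.02 against controls and -1.60 to -0.08 against 0.2 mg/kg. With so few reads the edgeR intervals can be too narrow. On the deposited scale limma gave -0.69 in both comparisons (adjusted p = 0.650 and 1). It passed only when limma was run on CPM after TMM scaling, with log2 changes of -0.36 in both (adjusted p = 0.0274 and 0.0253), where the added pseudocount shrinks changes of so low a gene. The same 3 livers carried the Xist reads given above. The Sort1 values rest on a few reads per library, and antisense and neighbouring transcripts are annotated at the Sort1 locus. At 0.2 mg/kg the edgeR log2 change against controls was 0.03 (95% interval -0.36 to 0.43). The DESeq2 interval for that comparison was wider, -0.49 to 0.57. After BLT-1 the edgeR log2 change was -0.25 (95% interval -0.88 to 0.38).

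**Figure D4:**
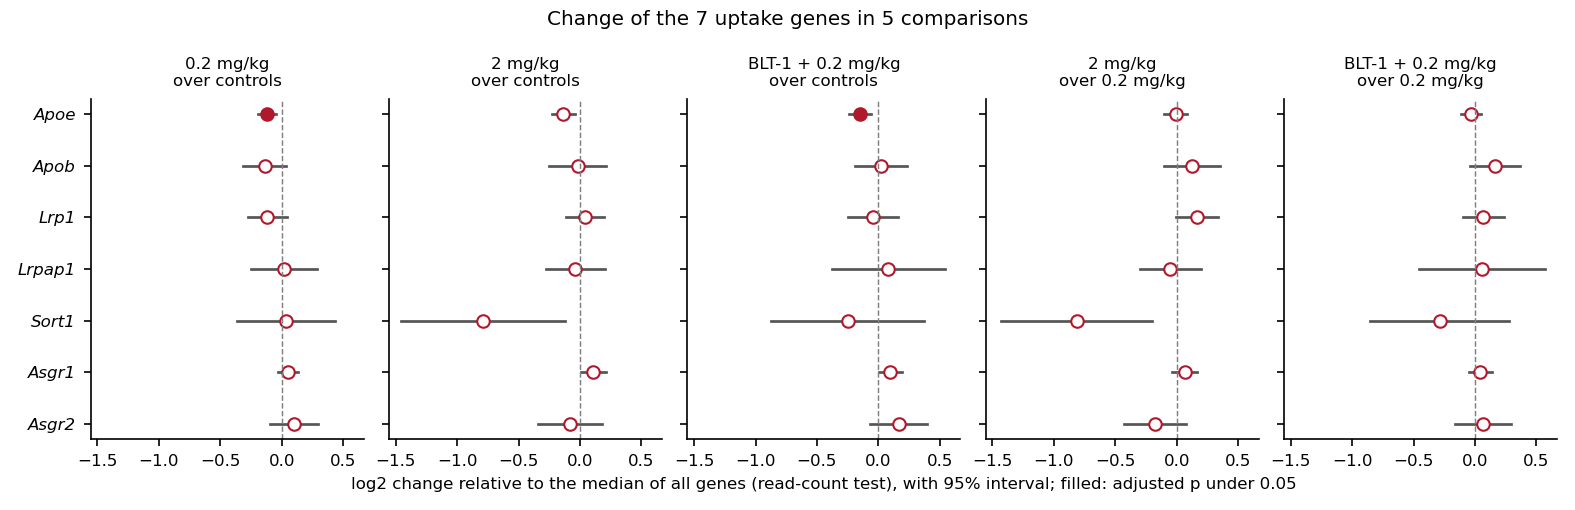
log2 changes of the 7 genes by edgeR relative to the median of all genes, with 95% intervals, in 5 comparisons (filled points: adjusted p under 0.05). Apoe is filled for 0.2 mg/kg and for BLT-1 with 0.2 mg/kg over controls, at -0.12 and -0.15, and Sort1 has the widest intervals, centred at -0.79 and -0.81 for 2 mg/kg over controls and over 0.2 mg/kg.

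Asgr1 (ENSMUSG00000020884.16) encodes the major subunit of the hepatocyte asialoglycoprotein receptor. Its level was 344, 345 and 340 CPM at 2 mg/kg and 335, 345, 342 and 331 CPM after BLT-1. The 8 livers at 0.2 mg/kg spanned 313, 331 and 345 CPM (lowest, median, highest), and the 7 controls spanned 292, 327 and 343 CPM. The 3 lowest of the 22 livers were controls 27, 28 and 29, at 301, 292 and 301 CPM. Group means were 343 ± 3.02 CPM at 2 mg/kg, 338 ± 6.17 CPM in the BLT-1 group, 330 ± 12.5 CPM at 0.2 mg/kg and 320 ± 21.0 CPM in controls (SD, n = 3, 4, 8 and 7). Log2 changes against controls were 0.05 at 0.2 mg/kg (95% interval -0.03 to 0.13), 0.11 at 2 mg/kg (95% interval 0.00 to 0.21) and 0.10 after BLT-1 (95% interval 0.00 to 0.19). These changes did not pass, with edgeR adjusted p of 0.642, 0.295 and 0.474. On the deposited scale the means at 2 mg/kg and at 0.2 mg/kg were below that of the controls, at 91.2% and 95.5%, and that after BLT-1 was above it, at 112.9%. These deposited means carry the shift of all genes. Relative to the median of all genes, the deposited-scale log2 changes of Asgr1 were 0.09 at 2 mg/kg and 0.04 at 0.2 mg/kg, on the same side as in CPM.

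Asgr2 (ENSMUSG00000040963.16) encodes the minor subunit. It was at 44.3, 69.0 and 57.7 CPM at 2 mg/kg, a coefficient of variation of 21.7% that was the highest of any member and group in CPM. On the deposited scale the same 3 livers gave 12.2%, the lowest of any member and group. After BLT-1 it was at 66.5, 74.6, 66.0 and 62.3 CPM. The lowest, median and highest livers were at 58.9, 65.4 and 69.7 CPM at 0.2 mg/kg and at 50.05, 58.9 and 80.1 CPM in controls. Control 27 was the highest of all livers, with the other 6 controls between 50.05 and 64.4 CPM, and liver 3 at 2 mg/kg was the lowest. The log2 changes against controls were 0.10 at 0.2 mg/kg (95% interval -0.09 to 0.29), -0.08 at 2 mg/kg (95% interval -0.34 to 0.18) and 0.17 after BLT-1 (95% interval -0.07 to 0.40), and edgeR called none (adjusted p = 0.719, 0.810 and 0.632). Without liver 3 the edgeR log2 change at 2 mg/kg was 0.08.

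The Asgr2 to Asgr1 read ratio was 0.129, 0.200 and 0.170 in the livers at 2 mg/kg and averaged 0.199 ± 0.0125 after BLT-1 (n = 4), 0.197 ± 0.0147 at 0.2 mg/kg (n = 8) and 0.191 ± 0.0340 in controls (SD, n = 7). Control 27 reached 0.266, while the other 6 controls lay between 0.171 and 0.188. The 0.2 mg/kg livers spanned 0.173 to 0.221, overlapping with those 6 controls. Across the 22 livers the subunit genes were weakly related (Pearson r = 0.12, Spearman rho = 0.19), a description over livers that share treatments.

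Correlations between members were weak throughout, with Pearson r from -0.35 (Sort1 and Apob) to 0.44 (Lrpap1 and Apob) over 21 pairs and the 22 livers. The genes most like each member over the 22 livers, by Pearson r of log2(CPM + 1), were sought among all tested genes. For Apoe they included Higd2a, a respiratory chain assembly factor, and Cyp2c23, a cytochrome P450 (r = 0.80 for both). For Sort1 they were Csad, an enzyme of taurine synthesis, Foxn3, a transcription factor, and Slco1a1, an organic anion transporter (r = 0.82, 0.82 and 0.81). Slco1a1 is known to differ between the sexes in mouse liver. For Lrp1 they were Pzp, Jtb and Scarb1 (r = 0.79, 0.75 and 0.72). Pzp encodes a plasma protease inhibitor whose complexes LRP1 takes up, and Scarb1 encodes SR-BI, the receptor that BLT-1 blocks. Asgr2 was most like Maob, Cyp2j5 and Prxl2b (r = 0.89, 0.87 and 0.81), Asgr1 like Cdo1, Slc25a37 and Usb1 (r = 0.75, 0.74 and 0.71), Lrpap1 like Snx27, Sec24c and Thumpd1 (r = 0.78, 0.73 and 0.72), and Apob like Rfk, Bpgm and Lypla2 (r = 0.74, 0.72 and 0.71). Each is the highest of the values over all tested genes, and these are descriptions.

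Around the members, 103 other genes of the uptake and lipoprotein pathway were listed, also with earlier results of these data known, of which 92 were tested. By limma 0 of the 92 passed in any comparison. Those with an unadjusted p under 0.05 by limma were 4 at 0.2 mg/kg, 5 at 2 mg/kg and 2 after BLT-1 against controls, 1 at 2 mg/kg against 0.2 mg/kg and 0 with BLT-1 against 0.2 mg/kg. By edgeR, 3 rose and 2 fell at 0.2 mg/kg (5.43% of the 92, against 5.03% of all genes). At 2 mg/kg 8 rose and 7 fell (16.3%, against 7.1% of all genes), and after BLT-1 1 rose and 2 fell (3.26%, against 2.71%). For 2 mg/kg against 0.2 mg/kg 4 rose and 1 fell (5.43%, against 5.51%), and for BLT-1 against 0.2 mg/kg 0 passed by edgeR, with 2 at an unadjusted p under 0.05, and 1 by DESeq2. The 2 mg/kg comparison carries the Xist pattern given above.

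**Figure D5:**
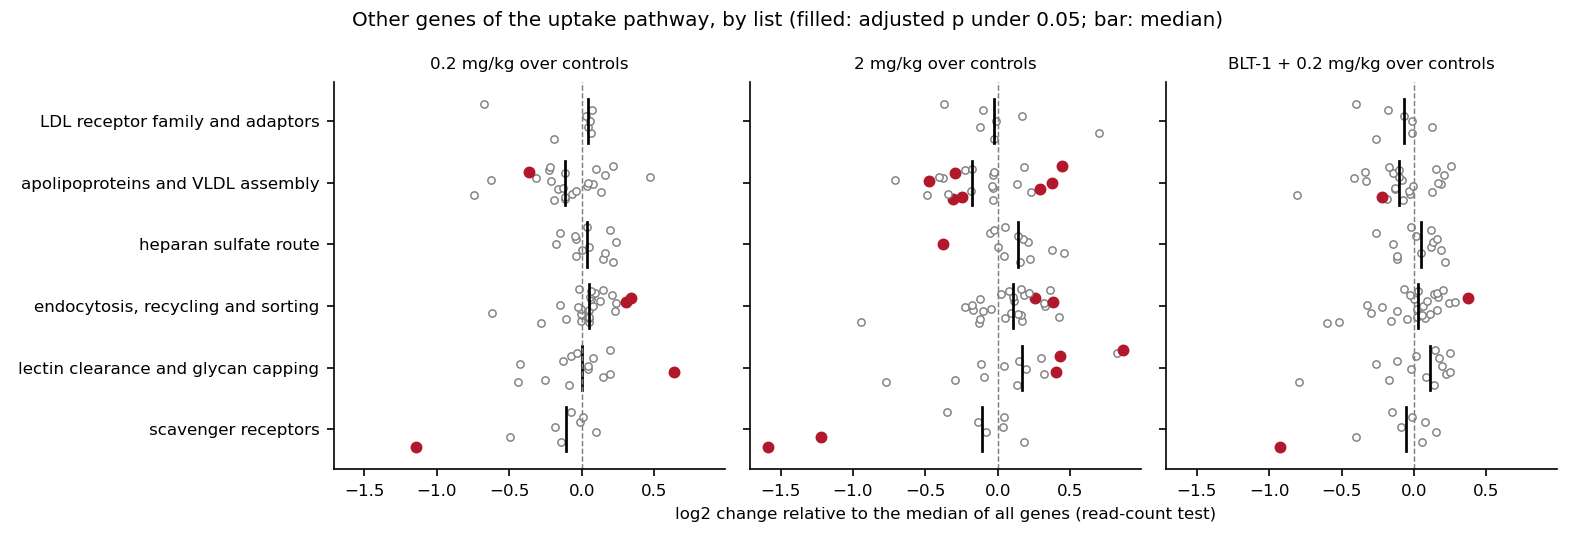
log2 changes by edgeR, relative to the median of all genes, of the listed pathway genes against controls at 0.2 mg/kg, at 2 mg/kg and after BLT-1 with 0.2 mg/kg. Each point is a gene, filled where the adjusted p was under 0.05, and bars are medians of the lists. Of the 92 genes, 5, 15 and 3 are filled in that order.

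No relative of LRP1 passed. Of 15 genes of the LDL receptor family and its adaptors, 13 were in the table and 7 had enough reads to be tested, and edgeR and limma called 0 of 7 in all 5 comparisons. Lrp6, a Wnt co-receptor, was at 4.17 ± 0.522 CPM at 2 mg/kg, 3.96 ± 0.641 CPM in the BLT-1 group, 4.74 ± 0.968 CPM at 0.2 mg/kg and 4.50 ± 1.16 CPM in controls (SD, n = 3, 4, 8 and 7).

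Among 23 apolipoprotein and VLDL assembly genes, 3 rose and 4 fell at 2 mg/kg, 1 fell at 0.2 mg/kg and 1 fell after BLT-1 (median log2 change -0.18, -0.12 and -0.10). Apoc2, the cofactor of lipoprotein lipase, was at 532 ± 78.5 CPM at 2 mg/kg and 437 ± 31.9 CPM in controls (log2 0.29 ± 0.08, edgeR adjusted p = 0.0281). Against the 388 ± 23.9 CPM of the 0.2 mg/kg group it was higher by 0.47 ± 0.08 (edgeR adjusted p = 0.000861), a call that held in all 22 fits without 1 liver. The call against controls was lost in 4 of 22 fits, those without liver 3 or 36 at 2 mg/kg or control 1 or 15 (highest adjusted p = 0.397). Mttp, which loads lipid onto apolipoprotein B, fell to 14.4 ± 0.805 CPM at 2 mg/kg, against 17.8 ± 1.60 CPM in controls (log2 -0.30 ± 0.08, edgeR adjusted p = 0.0178). Its call was lost without liver 3 or liver 36 at 2 mg/kg (highest adjusted p = 0.149). Tm6sf2, a membrane protein of VLDL lipidation, rose to 15.97 ± 2.55 CPM at 2 mg/kg, against 11.8 ± 1.38 CPM in controls (log2 0.45 ± 0.12, edgeR adjusted p = 0.0218), a call lost without liver 3 or liver 16.

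Apoa2, a structural apolipoprotein of HDL, fell to 6146 ± 191 CPM at 2 mg/kg and to 6229 ± 196 CPM in the BLT-1 group, against 7325 ± 367 CPM in controls (log2 -0.25 ± 0.07 and -0.22 ± 0.06, edgeR adjusted p = 0.0255 and 0.0458). The call at 2 mg/kg was lost without any 1 of the 3 livers of that group, and the call after BLT-1 was lost in 13 of 22 fits, with the number range as a block (edgeR adjusted p = 0.107) and without controls 28 and 29 (adjusted p = 0.0765). At 0.2 mg/kg the gene that fell was P4hb, the protein disulfide isomerase that pairs with the Mttp product, at 1344 ± 49.1 CPM against 1735 ± 393 CPM in controls (log2 -0.36 ± 0.09, edgeR adjusted p = 0.0250). This call was lost without liver 31 at 0.2 mg/kg or control 28.

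The heparan sulfate genes, whose products make the cell-surface chains that bind apolipoprotein E, gave 1 call among 13 tested. Ndst1, which deacetylates and sulfates the chain, fell to 12.2 ± 2.33 CPM at 2 mg/kg, against 16.02 ± 1.29 CPM in controls (log2 -0.38 ± 0.10, edgeR adjusted p = 0.0160), and the call was lost without liver 3 or liver 36 at 2 mg/kg. Sdc2, a heparan sulfate-bearing syndecan, was at 28.7 ± 1.35 CPM at 0.2 mg/kg and 29.8 ± 5.06 CPM in controls and was not called.

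Of 27 tested genes for endocytosis, recycling and sorting, 2 rose at 0.2 mg/kg, 2 at 2 mg/kg and 1 after BLT-1, and 0 fell. Rab5c, a small GTPase of early endosomes, was at 25.7 to 27.6 CPM at 2 mg/kg, 26.2 to 30.5 CPM in the BLT-1 group, 24.6 to 31.8 CPM at 0.2 mg/kg and 20.5 to 24.8 CPM in controls. The lowest particle-treated liver, at 24.6 CPM, lay just under the highest control. At 2 mg/kg all livers lay above all controls, as was the case for 4.06% of genes in that comparison. The share of genes with such a separation after BLT-1, or nearly so over all particle-treated livers, was not tested. The log2 change of Rab5c was 0.34 ± 0.06 at 0.2 mg/kg (edgeR adjusted p = 0.000816) and 0.37 ± 0.07 after BLT-1 (adjusted p = 0.00527), and both calls held in all 22 fits without 1 liver. At 2 mg/kg it was 0.26 ± 0.07 (edgeR adjusted p = 0.0478), called in 8 of 22 such fits. M6pr, the cation-dependent mannose 6-phosphate receptor, rose by 0.31 ± 0.08 at 0.2 mg/kg and 0.38 ± 0.11 at 2 mg/kg (edgeR adjusted p = 0.0407 and 0.0459), called in 10 and 9 of 22 fits. Without controls 28 and 29 both M6pr calls were lost (edgeR adjusted p = 0.0874 and 0.056), and the call at 2 mg/kg was also lost with the number range as a block (adjusted p = 0.0506).

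Of 14 tested genes for lectin clearance and glycan capping, 3 rose at 2 mg/kg, 1 at 0.2 mg/kg, 0 passed after BLT-1 and 0 fell. St6gal1 adds sialic acid to terminal galactose, the sugar that the asialoglycoprotein receptor binds when it is bare. It was at 14.8 ± 3.34 CPM at 2 mg/kg and 8.20 ± 1.31 CPM in controls (log2 0.86 ± 0.13, edgeR adjusted p = 0.000247), with all 3 livers (11.7 to 18.3 CPM) above all controls (6.06 to 9.92 CPM), as was the case for 4.06% of genes in that comparison. Against 9.35 ± 0.520 CPM at 0.2 mg/kg the log2 change was 0.67 ± 0.13 (edgeR adjusted p = 0.00302), a call lost only without liver 36 at 2 mg/kg. St3gal4, another sialyltransferase, was at 8.28 ± 1.22 CPM at 2 mg/kg and 6.18 ± 0.640 CPM in controls (log2 0.43 ± 0.11, edgeR adjusted p = 0.0247), a call lost without liver 16 or liver 36. Lgals9, the galactose-binding galectin-9, rose to 115 ± 18.3 CPM at 0.2 mg/kg, against 74.1 ± 6.14 CPM in controls (log2 0.64 ± 0.09, edgeR adjusted p = 0.000116), and this held in all 22 fits. At 2 mg/kg it was at 97.5 ± 7.85 CPM (log2 0.40 ± 0.12, edgeR adjusted p = 0.0446, called in 13 of 22 fits), a call lost without controls 28 and 29 (adjusted p = 0.0704).

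Of 8 scavenger receptors, 1 fell at 0.2 mg/kg, 2 at 2 mg/kg and 1 after BLT-1, and 0 rose. The haemoglobin scavenger receptor Cd163 fell to 45.4% of controls at 0.2 mg/kg and to 33.3% at 2 mg/kg (edgeR adjusted p = 0.00132 and 0.00142). Both calls held in all 22 fits without 1 liver. After BLT-1 it fell to 52.8% (edgeR adjusted p = 0.0471, called in 5 of 22 such fits, and lost without controls 28 and 29 at adjusted p = 0.0979). Cd163 was low, at 0.340 to 0.553 CPM at 2 mg/kg and 0.742 to 1.93 CPM in controls, so these changes rest on few reads, as with Sort1. Marco, a receptor for bacteria and particles, fell to 43.0% of controls at 2 mg/kg (edgeR adjusted p = 0.0236), a call lost without liver 3 or liver 36. Its level was also low, at 0.443 to 1.23 CPM at 2 mg/kg and 1.35 to 3.32 CPM in controls. For Cd163 and for Marco all livers at 2 mg/kg lay below all controls, as was the case for 3.63% of genes in that comparison. Both are macrophage genes, and these livers also had the Kupffer cell marker sums given above, in which Marco is itself counted. The part of those sums in the result was not tested.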

How the data were processed

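3′-end mRNA libraries of 22 mouse livers were used. Per the submitters' processing notes, their tools included Trim Galore 0.6.7, STAR 2.7.9a, Salmon 1.5.2 and DESeq2 1.32.0 with GRCm39, and whether counting used strand is not given in the sources used here. The deposited table holds a spike-in-scaled signal per gene, normalized by the authors. Each deposited value was a whole multiple of the library's smallest step (100% within 0.001 of a whole number), so reads were recovered by division. The planned main test was limma 3.58.1 with a trend on log2(deposited value + 1), for the 11159 genes at 10 or more in at least 3 libraries, all 22 libraries in 1 fit. Beside it, edgeR 4.0.16 (quasi-likelihood test, TMM, filterByExpr) was run on the recovered reads of 10766 genes. DESeq2 1.42.0 was an alternative. Adjusted p are Benjamini-Hochberg values over all genes tested, with a threshold of 0.05, and changes are relative to the median of all genes tested. That median was -0.11 at 0.2 mg/kg, -0.23 at 2 mg/kg and 0.05 after BLT-1 against controls by limma, and at most 0.02 from 0 by edgeR. Intervals cover the change after this shift. For edgeR, SE and intervals were back-calculated from the log2 change and the quasi-likelihood p-value, and were not taken from the fit. They can differ from those of another tool, and for genes with few reads they can be narrower than counting noise alone would give. For Sort1 at 0.2 mg/kg against controls the SE was 0.19 by edgeR and 0.27 by DESeq2. At 2 mg/kg against controls it was 0.32 by edgeR and 0.40 by DESeq2. Alternatives were other pseudocounts, filters and size factors, the animal number range as a block, and leaving out livers.

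The members and gene lists were chosen with earlier results of these data known. Other pathway genes were chosen by a rule: per list and comparison, up to 4 called by edgeR with the smallest adjusted p, or where none was called the one with the highest level. Not all of those chosen are described above. Left out were Surf4, Sar1b and St3gal4 at 2 mg/kg against 0.2 mg/kg (log2 0.41, -0.27 and 0.51, edgeR adjusted p = 0.0098, 0.048 and 0.0078). Apoc1, Clta and Stab1, chosen for their level and not called, were also left out. The 3 genes most like each member were named, except for 1 gene that is not reported here. Reads are not independent molecules, and tests over 22 livers, with 3 in the smallest group, limit the precision. Of the 16553 rows, 84 were spike-ins, which stayed out of library sizes and tests and took 2.58% to 7.18% of reads.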

Additional observations from a re-analysis of the deposited data

Results flagged for a closer look

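Of 30 sets of replicate values tested for a liver far from its group, 2 held one, and chance alone marks about 1 set in 20. Apoe in liver 7 after BLT-1 with 0.2 mg/kg was at 3781 CPM, while the other 3 livers of that group lay between 4073 and 4117 CPM. The gap was 0.869 of the group's range, above the limit of 0.829 for 4 livers. The Asgr2 to Asgr1 read ratio in control 27 was 0.266, while the other 6 controls lay between 0.171 and 0.188. That gap was 0.826 of the range, above the limit of 0.568 for 7 livers. Control 27 was the highest liver for Asgr2, at 80.1 CPM. It had the fewest Apoe reads of all libraries, 30715, and was also the smallest library, with 7152596 reads. Its Apoe level was 4558 CPM, against a control median of 4541 CPM.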

How the results depend on the processing

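Against the deposited-scale limma test, which called 0 members in every comparison, the count of called members was 1 at 0.2 mg/kg and after BLT-1 against controls with edgeR under TMM or RLE scaling, DESeq2, edgeR with the number range as a block, edgeR without controls 28 and 29, and limma on TMM-scaled CPM. It was also 1 at 2 mg/kg against controls with DESeq2, the edgeR block, edgeR without controls 28 and 29, and limma on TMM-scaled CPM, which called 1 at 2 mg/kg against 0.2 mg/kg too. It ranged over 0 to 1 in these 3 comparisons with controls when 1 liver was left out. With spike-in size factors edgeR called 25 genes at 0.2 mg/kg against 541 under TMM scaling, and limma on TMM-scaled CPM called 613 against 23 on the deposited scale. The cause was not tested.

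Some directions turned with the setting. Lrp1 at 2 mg/kg was 0.02 on the deposited scale, and -0.0174 with pseudocount 10, -0.0152 with no filter and -0.0151 without controls 28 and 29. Apoe with BLT-1 against 0.2 mg/kg was 8.46e-05 with pseudocount 10. Asgr1 with BLT-1 against 0.2 mg/kg was -0.0182 (limma) and -0.0149 (edgeR) with the number range as a block. Without controls 28 and 29, Sort1 at 0.2 mg/kg was -0.0935 (limma) and -0.0893 (edgeR), Asgr1 at 0.2 mg/kg was -0.00802 and -0.000958, and Lrpap1 at 2 mg/kg was 0.00174 (edgeR).

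Leaving out 1 liver gave ranges across 0 for Apob (-0.0845 to 0.0465), Asgr2 (-0.257 to 0.0802) and Lrp1 (-0.0423 to 0.0858) at 2 mg/kg, Apoe at 2 mg/kg against 0.2 mg/kg (-0.0539 to 0.0458), Lrpap1 with BLT-1 against 0.2 mg/kg (-0.0144 to 0.151), Apob (-0.0461 to 0.0841) and Lrp1 (-0.097 to 0.00454) after BLT-1, and Sort1 (-0.0507 to 0.0863) and Lrpap1 (-0.0368 to 0.0574) at 0.2 mg/kg.

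As percent of the control mean on the deposited scale, Apoe was at 76.7 at 2 mg/kg, 93.8 after BLT-1 and 84.4 at 0.2 mg/kg, Lrp1 at 85.9 and 85.2 at 2 and 0.2 mg/kg, Lrpap1 at 82.3 and 92.7, Sort1 at 48.9 and Apob at 82.1 at 2 mg/kg, Asgr1 at 91.2, 112.9 and 95.5 in the order given for Apoe, and Asgr2 at 97.4 at 0.2 mg/kg. No paired analysis was possible because the labels give each animal its own number, shared by no other group. Depth limits Sort1, with 6 to 14 reads per library.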
